A study of Mus musculus with 8 samples.

Results

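The 10 genes described here, read in cultures of mouse spermatogonia, are receptors for GDNF and FGF and a set of genes that report on, or restrain, the ERK pathway below these receptors. They were picked from the count table by name, are 10 of its 55421 genes, and were chosen with earlier results of these data known. The receptors are *Gfra1*, *Ret*, *Fgfr1*, *Fgfr2* and *Fgfr3*, and the feedback genes are *Spry2*, *Spry4*, *Spred1*, *Dusp6* and *Etv4*. All 10 were among the 20477 genes that passed the filter on low counts and were tested. RNA of spermatogonial stem cell (SSC) cultures was sequenced in 4 conditions with 2 libraries each, which the study describes as independent biological replicates. The cells were taken from C57BL/6XDBA/2 pups (F1 hybrid), 6 days old, and had grown in complete SSC medium with GDNF and bFGF (FGF2), each given as 10 ng/ml by the sample labels, while the study's list of media gives a higher concentration for GDNF. Vehicle-treated cultures (Veh) stayed in that medium, and RA cultures received retinoic acid in it. In nutrient restriction (NR, labelled EBSS), cells were kept in 10% complete SSC medium and 90% Earle's balanced salt solution, so that GDNF and FGF2 were diluted together with the nutrients. NRRA cultures (labelled RA_EBSS) received retinoic acid in the NR medium, and treatment lasted 2 days. All conditions shared a layer of irradiated mouse embryonic fibroblasts (MEFs) as feeder cells, and RNA of these fibroblasts can have entered the libraries.

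GDNF binds the co-receptor GFRA1, which signals through the tyrosine kinase RET, while FGF2 binds the tyrosine kinases of the FGFR family. Both routes activate Ras and the kinase ERK, and in the testis GDNF from somatic cells is needed for the self-renewal of spermatogonial stem cells. Active ERK induces its own brakes, among them the phosphatase DUSP6 and the Sprouty and SPRED proteins, and it also induces ETS factors such as ETV4, so that the RNAs of these genes are widely read as a record of recent FGF and ERK signalling.

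*Dusp6*, *Spry2* and *Gfra1* are shown with the sequence around their start sites, since they stand for the feedback gene that was lowered most by NRRA, a feedback gene whose level in NRRA equalled the product of the single treatments, and a receptor whose level lay far below it. Each run covers 250 bases before to 50 bases after a RefSeq start on GRCm38.p6, in the direction of the gene. Capitals mark CGGAA or its reverse complement TTCCG, the core that ETS factors bind, and AGGTCA, the half-site of nuclear receptors such as the retinoic acid receptors. The *Dusp6* window is chr10:99262981-99263280 on the plus strand, that of *Spry2* is chr14:105896770-105897069 on the minus strand, and that of *Gfra1* is chr19:58455349-58455648 on the minus strand.
Dusp6: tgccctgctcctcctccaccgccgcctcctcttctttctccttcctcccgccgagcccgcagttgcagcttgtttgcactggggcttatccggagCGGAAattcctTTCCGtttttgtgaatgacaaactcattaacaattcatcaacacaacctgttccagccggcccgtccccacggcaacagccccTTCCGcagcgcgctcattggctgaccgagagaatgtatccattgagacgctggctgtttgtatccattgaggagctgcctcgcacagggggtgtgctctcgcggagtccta
Spry2: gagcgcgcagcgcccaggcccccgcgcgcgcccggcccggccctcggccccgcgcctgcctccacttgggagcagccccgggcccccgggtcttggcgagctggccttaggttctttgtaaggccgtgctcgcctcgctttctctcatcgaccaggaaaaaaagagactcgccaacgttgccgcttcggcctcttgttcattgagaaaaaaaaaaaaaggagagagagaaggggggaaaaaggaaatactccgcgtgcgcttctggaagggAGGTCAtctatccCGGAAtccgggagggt
Gfra1: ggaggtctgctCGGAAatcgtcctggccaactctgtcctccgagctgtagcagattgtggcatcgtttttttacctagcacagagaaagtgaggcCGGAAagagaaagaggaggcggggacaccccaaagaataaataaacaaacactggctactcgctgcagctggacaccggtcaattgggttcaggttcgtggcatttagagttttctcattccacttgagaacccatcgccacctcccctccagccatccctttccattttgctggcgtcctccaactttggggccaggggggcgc
The *Dusp6* window held 3 ETS cores, with first bases at -155, -144 and -61 from the start, *Gfra1* held 2 at -239 and -155, and *Spry2* held 1 at 35 beside an AGGTCA at 22. RefSeq windows were found for 6 of the 10 genes, 7 windows in all. The window of *Spred1* held 2 ETS cores, and those of *Fgfr2* and *Fgfr3* held none. Over 32851 promoter windows of the same length searched on both strands, 29.9% held CGGAA and 16.3% held AGGTCA. The longer ETS motif CCGGAAG, which contains the core and was in 8.86% of all windows, and the CRE core TGACGTC, which was in 3.21%, were in no window of the 6 genes. The CGGAA search was added after the windows had been read, and a match or its absence says nothing here about binding.

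Total counts per library ran from 19261333 to 30023585. The 8 germ cell markers (*Ddx4*, *Dazl* and others) were detected, none at 0 in all libraries, with summed levels of 901 to 915 CPM in Veh, 1070.0 to 1098 in NR, 985 to 1043 in RA and 1132 to 1155 in NRRA. None of the 12 fibroblast markers was at 0 either, and their sum ran from 10550.0 to 10820.0 CPM in Veh, 22540.0 to 23670.0 in NR, 8385 to 9072 in RA and 19830.0 to 20360.0 in NRRA. The collagen genes *Col1a1*, *Col1a2* and *Col3a1* made up most of this sum, and *S100a4* was lower than Veh in each treatment, with 3.15 ± 0.103 CPM in Veh (mean ± SD, n = 2), 1.74 ± 0.262 in NR, 1.98 ± 0.00806 in RA and 0.618 ± 0.216 in NRRA. All 8 retinoic acid targets on the list, such as *Stra8* and *Cyp26a1*, rose in RA and in NRRA, with sums of 153 to 161 CPM in Veh, 88.5 to 89.4 in NR, 1680.0 to 1742 in RA and 1970.0 to 2012 in NRRA. Of the 8 targets, 3 rose and 1 fell in NR (edgeR). The lower sum in NR went with *Cyp26b1*, at 122 CPM in Veh and 35.9 in NR, while *Stra8* was at 1.325 and 14.4. Among all tested genes, 21.7% rose and 22.2% fell in NR, and 19.8% rose in RA and 30.1% in NRRA. CPM stands here for counts scaled to TMM-corrected library totals, and levels per gene length are given as RPKM, the CPM divided by the exon length in kilobases. Differences are log2 fold changes of the edgeR fit over all 8 libraries, with standard errors (SE) derived from its F test. FDR is the p-value of edgeR's quasi-likelihood test after Benjamini-Hochberg adjustment over all tested genes.

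**Figure D1:**
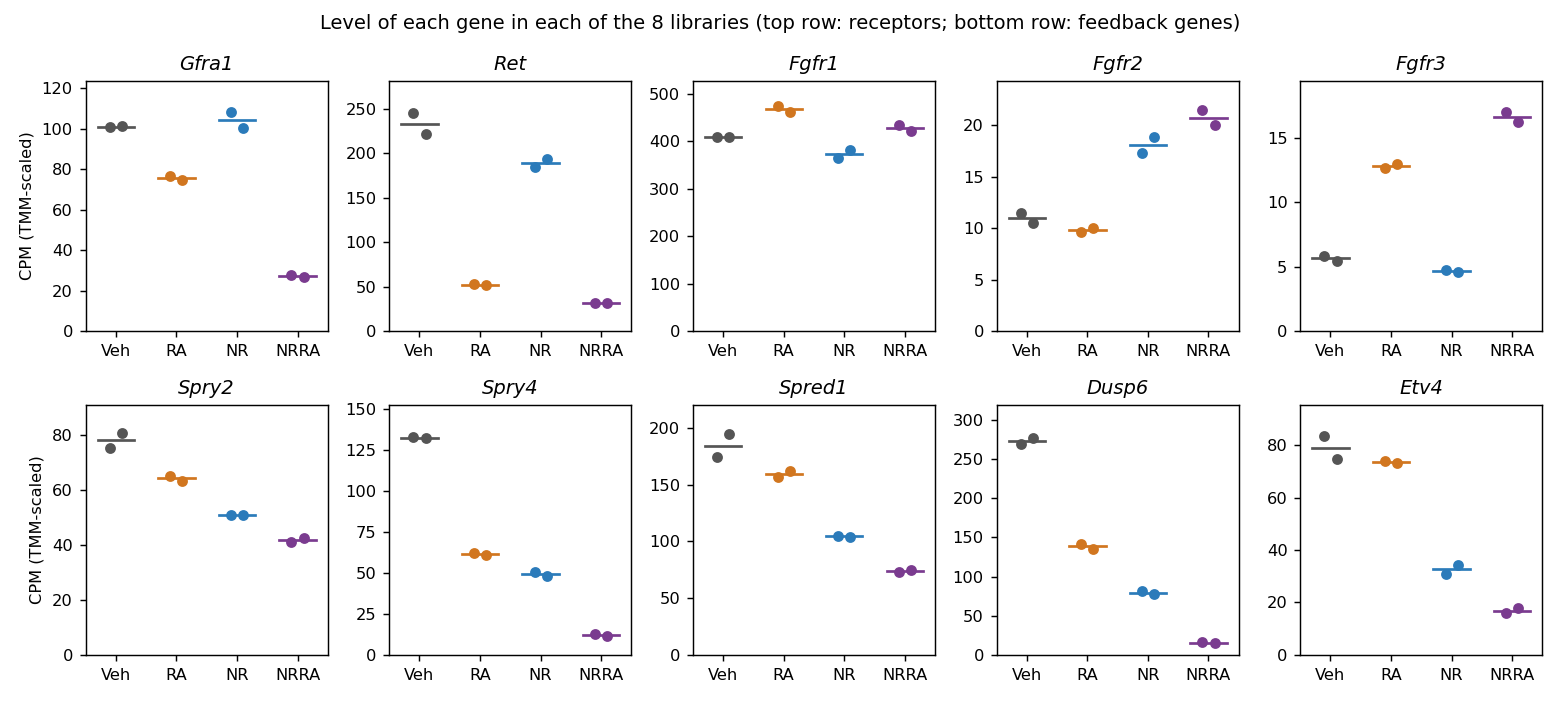
Levels of the 10 genes in CPM (linear axes from 0), with 1 point per library, a short line at the mean of the 2 libraries and a panel per gene, for Veh, RA, NR and NRRA. *Ret* is low in both conditions with retinoic acid, *Gfra1* is lowest in NRRA, *Fgfr3* is high in RA and NRRA, and *Spry4* and *Dusp6* step down from Veh through RA and NR to NRRA.

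Of the GDNF receptor genes, *Gfra1* was 3.72-fold lower than in vehicle where nutrient restriction and retinoic acid were combined and much less so with retinoic acid alone, whereas *Ret* fell more than 4-fold with retinoic acid in either medium. *Gfra1* (GRCm38 chr19:58235604-58455909, minus strand) encodes the part of the receptor that binds GDNF. Its level was 101 and 101 CPM in Veh, 108 and 100.4 in NR, 76.9 and 74.6 in RA and 27.8 and 26.6 in NRRA. The NR libraries overlapped those of Veh, the RA libraries lay below both, and the NRRA libraries lay far below all others. The difference from Veh was 0.04 ± 0.05 (log2, SE, FDR = 0.536) in NR, -0.42 ± 0.05 (FDR = 4.71e-07) in RA and -1.90 ± 0.06 (FDR = 7.25e-20) in NRRA by edgeR. With retinoic acid *Gfra1* thus differed by -1.94 on the log2 scale in NR medium (NRRA vs NR, FDR = 1.01e-19, edgeR), beside the -0.42 of complete medium. The interaction, the difference between these effects of retinoic acid, was -1.52 ± 0.08 (FDR = 1.99e-13, edgeR). Of the exon bases of *Gfra1*, 7.6% overlap *Gm16277* on the opposite strand, and whether the counting used the strand is not given in the sources used here.

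*Ret* (chr6:118151745-118197718, minus strand), the kinase that GFRA1 recruits, was at 245 and 221 CPM in Veh and at 185 and 193 in NR. Its level was 53.1 and 51.7 CPM in RA and 31.8 and 31.9 in NRRA. The libraries of the 4 conditions did not overlap and stood in the order Veh, NR, RA and NRRA. Against Veh, *Ret* differed by -0.30 ± 0.05 (log2, SE, FDR = 1.30e-05) in NR, by -2.16 ± 0.05 (FDR = 7.14e-21) in RA and by -2.87 ± 0.06 (FDR = 6.03e-24) in NRRA, a 7.32-fold lower level in the last (edgeR). *Ret* was also lower in NRRA than in RA, with a difference of -0.72 ± 0.06 (FDR = 2.39e-10), and its interaction was -0.41 ± 0.08 (FDR = 5.11e-04, edgeR). The 8 markers of differentiating spermatogonia summed to 1451 and 1483 CPM in Veh, 1172 and 1188 in NR, 1930.0 and 1905 in RA and 2245 and 2301 in NRRA. *Ccnd2* alone made up 1278 CPM of the sum in Veh, 984 in NR, 854 in RA and 753 in NRRA. *Stra8* made up 642 CPM of it in RA and 937 in NRRA, and *Kit* 207 and 358. Of the 8 markers, 4 rose (*Kit*, *Stra8*, *Sohlh1* and *Dmrtb1*) and 3 fell (*Sohlh2*, *Rhox13* and *Ccnd2*) in NR by edgeR. In RA 5 rose and 1 fell (*Ccnd2*), and in NRRA 6 rose and 2 fell (*Ccnd2* and *Dmrtb1*). Among all tested genes, 21.7% rose and 22.2% fell in NR, 19.8% and 23.4% in RA, and 30.1% and 28.7% in NRRA. In bulk RNA, fewer cells of a type and less RNA per cell cannot be told apart, and the part that the makeup of the cultures had in the levels of *Gfra1* and *Ret* was not tested.

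Among the FGF receptor genes, the abundant *Fgfr1* stayed within 1.14-fold of vehicle, *Fgfr2* was higher in both restricted media, and *Fgfr3* was higher in both conditions with retinoic acid. *Fgfr1* (chr8:25513654-25575718, plus strand) was at 409.6 and 408 CPM in Veh, 365 and 382 in NR, 473 and 461 in RA and 435 and 422 in NRRA. The 2 libraries of each condition did not overlap those of any other, with NR the lowest and RA the highest. By edgeR the gene differed from Veh by -0.13 ± 0.04 (log2, SE, FDR = 0.00905) in NR, by 0.19 ± 0.04 (FDR = 2.94e-04) in RA and by 0.07 ± 0.04 (95% interval -0.01 to 0.15, FDR = 0.153) in NRRA. Without NR replicate 1 the *Fgfr1* difference in NR was -0.08 and no longer passed (FDR = 0.268, edgeR). *Fgfr1* was lower in NRRA than in RA, with a difference of -0.13 ± 0.04 (FDR = 0.0119, edgeR), a call that ended without RA replicate 1 (-0.11, FDR = 0.0921) and without NRRA replicate 2 (-0.10, FDR = 0.154).

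*Fgfr2* (chr7:130162451-133123350, minus strand) was at 11.5 and 10.5 CPM in Veh, 17.2 and 18.9 in NR, 9.58 and 10.1 in RA and 21.5 and 19.97 in NRRA. All 4 libraries in restricted medium lay above all 4 in complete medium. The difference from Veh was 0.72 ± 0.10 (log2, SE, FDR = 8.36e-07) in NR and 0.91 ± 0.09 (FDR = 3.38e-09) in NRRA by edgeR, and in RA it was -0.16 ± 0.11 (FDR = 0.249). Between NRRA and RA it was 1.07 ± 0.09 (FDR = 2.05e-10, edgeR), a 2.10-fold higher level. Most fibroblast markers moved in the same direction as *Fgfr2*, with 10 of 12 higher and 1 lower in NR vs Veh, 9 higher and 3 lower in NRRA vs Veh and 10 higher and 2 lower in NRRA vs RA. Among all tested genes, 21.7% were higher and 22.2% lower in NR vs Veh, 30.1% and 28.7% in NRRA vs Veh, and 20.9% and 19.4% in NRRA vs RA. *S100a4* was lower in NR and NRRA, and *Lum* was lower in NRRA and did not pass in NR. The part of these markers in the *Fgfr2* result was not tested. *Fgfr2* shares 3.04% of its exon bases with *Ctbp2* on the same strand.

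*Fgfr3* (chr5:33721674-33737068, plus strand) was at 5.84 and 5.47 CPM in Veh and at 4.72 and 4.59 in NR. With retinoic acid it was at 12.6 and 13.0 CPM in RA and at 17.01 and 16.2 in NRRA. The 4 libraries with retinoic acid were all above the 4 without it, and those of NRRA were above those of RA. By edgeR *Fgfr3* rose by 1.18 ± 0.11 (log2, SE, FDR = 4.15e-09) in RA and by 1.55 ± 0.11 (FDR = 2.03e-12) in NRRA, 2.27-fold and 2.93-fold, while in NR the difference was -0.28 ± 0.14 (FDR = 0.102). The difference between NRRA and RA, 0.37 ± 0.09 (FDR = 0.00127 by edgeR), had FDR = 0.0626 with DESeq2. Of its exon bases, 13.9% overlap *G630022F23Rik* on the opposite strand.

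Per gene length, *Fgfr1* made up nearly all of the FGF receptor RNA in each library. The libraries can hold RNA of the feeder fibroblasts, and the part of each cell type in the *Fgfr1* level was not tested. Of the summed RPKM of *Fgfr1*, *Fgfr2*, *Fgfr3* and *Fgfr4*, the share of *Fgfr1* was 95.2% and 95.6% in Veh, 93.7% and 93.5% in NR, 94.1% and 93.3% in RA and 89.7% and 90.0% in NRRA. *Fgfr2* and *Fgfr3* each reached between 4.08% and 4.84% of the sum in the NRRA libraries. *Fgfr4* had 9 to 59 counts per library and at most 1.21% of the sum.

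The feedback genes, in contrast, were each lower in every treated library than in both Veh libraries, and all of them fell in every treatment except *Etv4* in RA, which did not pass the test. *Dusp6* (chr10:99263231-99267489, plus strand), the phosphatase that inactivates ERK, was at 269.9 and 277 CPM in Veh, 81.5 and 77.3 in NR, 142 and 136 in RA and 16.0 and 14.6 in NRRA. The 4 conditions were fully separated in the order Veh, RA, NR and NRRA. By edgeR *Dusp6* differed from Veh by -1.79 ± 0.05 (log2, SE, FDR = 1.94e-20) in NR, by -0.98 ± 0.05 (FDR = 5.44e-15) in RA and by -4.16 ± 0.06 (FDR = 7.59e-27) in NRRA. Its level was thus 3.45-fold lower in NR, 1.98-fold lower in RA and 17.9-fold lower in NRRA.

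*Spry4* (chr18:38586247-38601415, minus strand), a Sprouty protein that dampens Ras and ERK signalling, showed the same order of conditions. Its level was 133 and 132 CPM in Veh, 50.4 and 48.2 in NR, 62.3 and 60.7 in RA and 12.97 and 11.6 in NRRA, without overlap between conditions. By edgeR *Spry4* differed from Veh by -1.43 ± 0.06 (log2, SE, FDR = 1.84e-17) in NR, by -1.11 ± 0.05 (FDR = 5.41e-15) in RA and by -3.43 ± 0.06 (FDR = 2.65e-24) in NRRA, a 10.8-fold lower level in the last. *Spry2* (chr14:105891947-105896819, minus strand), its relative, changed less. *Spry2* was at 75.5 and 80.9 CPM in Veh, 50.9 and 51.1 in NR, 65.2 and 63.5 in RA and 41.1 and 42.7 in NRRA, again without overlap. It differed from Veh by -0.62 ± 0.06 (FDR = 1.13e-09) in NR, by -0.28 ± 0.06 (FDR = 1.61e-04) in RA and by -0.90 ± 0.06 (FDR = 2.95e-13) in NRRA (edgeR), a 1.86-fold lower level in the last.

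*Spred1* (chr2:117121374-117182279, plus strand), which blocks the activation of Raf by Ras, was at 174 and 194 CPM in Veh, 105 and 104 in NR, 157 and 162 in RA and 73.4 and 75.2 in NRRA. The conditions did not overlap, and the gap between Veh and RA was smaller than the spread between the Veh libraries. By edgeR *Spred1* differed from Veh by -0.82 ± 0.05 (log2, SE, FDR = 5.20e-13) in NR, by -0.21 ± 0.05 (FDR = 0.00116) in RA and by -1.31 ± 0.05 (FDR = 1.55e-17) in NRRA, 2.48-fold lower in the last. Without Veh replicate 2 the difference of *Spred1* in RA was -0.11 (FDR = 0.0383, edgeR), and with offsets for GC content and gene length it was -0.47 (FDR = 2.77e-13). With these offsets the difference in NR was -1.06 and passed 2-fold.

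*Etv4* (chr11:101769742-101785371, minus strand), an ETS transcription factor, was the feedback gene that did not pass the test with retinoic acid in complete medium. It was at 83.4 and 74.6 CPM in Veh, 31.0 and 34.4 in NR, 73.9 and 73.4 in RA and 15.9 and 17.8 in NRRA. The RA libraries were only just below Veh replicate 2, the NR libraries were clearly lower and the NRRA libraries lowest. By edgeR the difference from Veh was -0.10 ± 0.06 (log2, SE, 95% interval -0.23 to 0.02, FDR = 0.192) in RA, -1.27 ± 0.07 (FDR = 1.83e-14) in NR and -2.23 ± 0.07 (FDR = 2.14e-19) in NRRA, the last 4.68-fold lower. In RA, the *Etv4* value was -0.16 with FDR = 0.0271 without Veh replicate 2 and 0.00 without Veh replicate 1 (edgeR).

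The falls in NR and NRRA went with higher sums of the fibroblast markers, 22540.0 to 23670.0 CPM in NR and 19830.0 to 20360.0 in NRRA against 10550.0 to 10820.0 in Veh, and the part of these genes in the falls was not tested. In RA the fibroblast markers summed to 8385 to 9072 CPM, and 8 of the 12 fell and 1 rose (edgeR). Their part in the RA levels of the feedback genes was not tested either. The germ cell markers, at 901 to 915 CPM in Veh, summed to more in each treatment, up to 1155 CPM in NRRA, with 5 of 8 higher and 0 lower in NR and with 3 higher and 4 lower in RA and in NRRA alike (edgeR). *Dazl* alone made up 311 CPM of this sum in Veh, 373 in NR, 425 in RA and 466 in NRRA. Among all tested genes, 21.7% were higher and 22.2% lower in NR, 19.8% and 23.4% in RA, and 30.1% and 28.7% in NRRA.

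**Figure D2:**
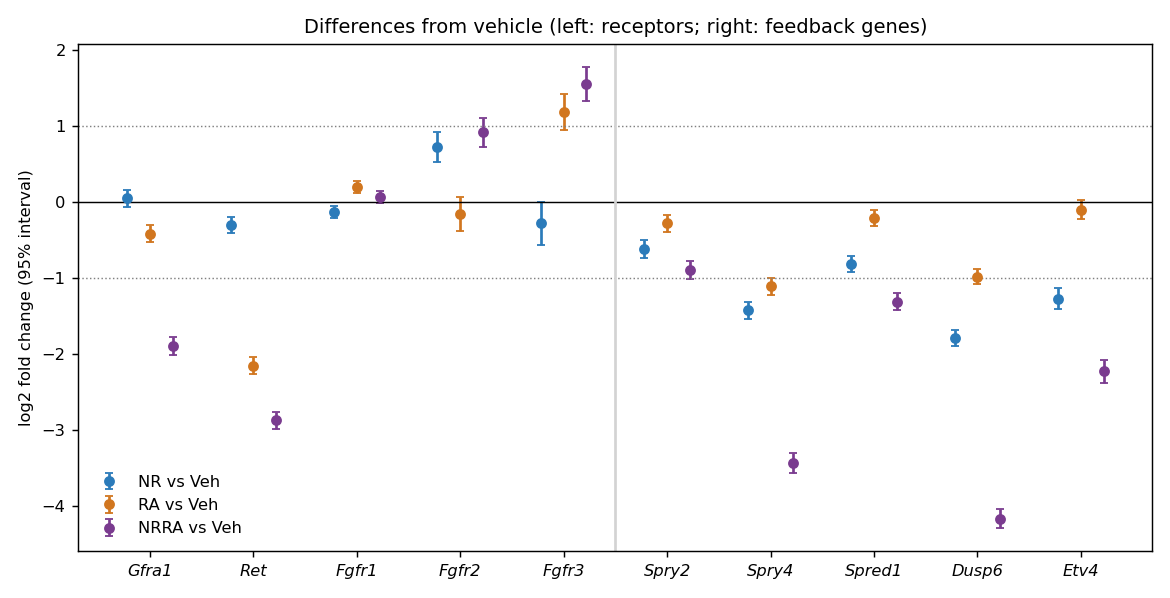
Log2 fold changes of the 10 genes against Veh in NR, RA and NRRA, as points with 95% intervals derived from the edgeR F test. Dotted lines are at a 2-fold change in either direction. The feedback genes on the right lie below 0 and lowest in NRRA, from -0.90 for *Spry2* to -4.16 for *Dusp6*, while the receptors on the left lie on both sides of 0.

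Counted together, 8 of the 10 genes passed an adjusted p under 0.05 in NR vs Veh (edgeR), 1 higher and 7 lower. Of all tested genes, 43.9% passed in this comparison, 21.7% higher and 22.2% lower. With a fold of at least 2 in addition, 3 of the 10 passed, all lower (*Spry4*, *Dusp6* and *Etv4*), against 8.29% of all tested genes, 5.33% higher and 2.96% lower. The libraries of NR and Veh did not overlap for 9 of the 10 genes, and for 69.0% of all tested genes. The median difference in NR was -0.46 (log2) over the 10 genes, -0.13 over the 5 receptors and -1.27 over the 5 feedback genes, and 0.01 over all tested genes.

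In RA vs Veh 8 of the 10 passed, 2 higher and 6 lower, where 43.2% of all tested genes passed, 19.8% higher and 23.4% lower. At a fold of at least 2 there were 3, with *Fgfr3* higher and *Ret* and *Spry4* lower, against 7.49% of all tested genes, 4.74% higher and 2.75% lower. *Dusp6* missed the fold threshold narrowly. The libraries of RA and Veh were separate for all 10 genes and for 68.1% of all tested genes. The median over the 10 genes was -0.25 in RA, with -0.16 over the receptors and -0.28 over the feedback genes, and -0.02 over all tested genes.

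In NRRA vs Veh 9 of the 10 passed, 2 higher and 7 lower, and *Fgfr1* did not. Of all tested genes 58.9% passed here, 30.1% higher and 28.7% lower. At a fold of at least 2 there were 7, with *Fgfr3* higher and *Gfra1*, *Ret*, *Spry4*, *Spred1*, *Dusp6* and *Etv4* lower, against 15.9% of all tested genes, 9.91% higher and 6.02% lower. The libraries of NRRA and Veh were separate for all 10 genes and for 77.3% of all tested genes. The median was -1.60 over the 10 genes, 0.07 over the receptors and -2.23 over the feedback genes, and 0.03 over all tested genes. The 3 comparisons share the Veh libraries, so that they are not independent of each other.

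Adding nutrient restriction to retinoic acid (NRRA vs RA) moved each of the 10 genes, and *Dusp6*, *Spry4* and *Etv4* most. *Dusp6* was 9.05-fold lower in NRRA than in RA (log2 -3.18 ± 0.06, SE, FDR = 5.66e-24 by edgeR), *Spry4* 5.01-fold lower (-2.32 ± 0.07, FDR = 3.45e-20) and *Etv4* 4.36-fold lower (-2.12 ± 0.07, FDR = 6.76e-19). *Spred1* (-1.10 ± 0.05) and *Gfra1* (-1.48 ± 0.06) were also past 2-fold, while *Spry2* (-0.62 ± 0.06) was not. In all, 10 of the 10 genes passed, 2 higher and 8 lower, against 40.3% of all tested genes, 20.9% higher and 19.4% lower. At a fold of at least 2 there were 6, 1 higher and 5 lower, against 8.29%, 4.61% and 3.68%. The libraries were separate for all 10 genes and for 69.9% of all tested genes.

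Adding retinoic acid to nutrient restriction (NRRA vs NR) lowered *Ret* 5.93-fold (log2 -2.57 ± 0.06, SE, FDR = 1.83e-22 by edgeR), *Dusp6* 5.18-fold (-2.37 ± 0.06, FDR = 1.01e-20) and *Spry4* 4.01-fold (-2.00 ± 0.07, FDR = 2.61e-18). *Fgfr3* was 3.57-fold higher (1.83 ± 0.11, FDR = 1.50e-13). *Etv4* differed by -0.96 ± 0.08, *Spred1* by -0.49 ± 0.05 and *Spry2* by -0.28 ± 0.06 on the log2 scale, and *Fgfr2* was at 0.19 ± 0.08 (FDR = 0.0605, edgeR). Here 9 of the 10 genes passed, 2 higher and 7 lower, against 43.4% of all tested genes, 21.3% higher and 22.1% lower. At a fold of at least 2 there were 5, 1 higher and 4 lower, against 8.70%, 4.56% and 4.14%. The libraries were separate for all 10 genes and for 72.5% of all tested genes.

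Whether the combined treatment gave what the single treatments would give together was read from the interaction, in which 0 means that the fitted level in NRRA, as a percentage of Veh, is the product of those in NR and RA. *Dusp6* was at 29.0% of Veh in NR and at 50.6% in RA, a product of 14.7%, and its level in NRRA was 5.59%. *Spry4* was at 9.27% where the product was 17.3%, and *Etv4* at 21.4% where it was 38.6%. The levels in NRRA were thus below the product for these 3 genes, with interactions of -1.39 ± 0.08 (log2, SE, FDR = 1.59e-12), -0.90 ± 0.09 (FDR = 3.97e-08) and -0.85 ± 0.10 (FDR = 6.44e-07) by edgeR.

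*Gfra1* stood at 26.9% of Veh in NRRA where the product was 77.2%, the widest gap among the 10 genes on the log2 scale, and *Ret* at 13.7% where it was 18.2%. *Fgfr3* lay above its product, at 293% against 186%, with an interaction of 0.65 ± 0.16 (FDR = 0.00763, edgeR). That call ended without Veh replicate 1 (0.57, FDR = 0.0526), without NR replicate 2 (0.60, FDR = 0.0635) and with DESeq2 (0.65, FDR = 0.0686). *Spred1* was at 40.3% against 49.0%, with an interaction of -0.28 ± 0.07 (FDR = 0.0088, edgeR) that no longer passed without RA replicate 2 (-0.26, FDR = 0.0620) or without NRRA replicate 1 (-0.26, FDR = 0.0635). With offsets for GC content and gene length the *Spred1* interaction was -0.15 (FDR = 0.0492).

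*Spry2* matched its product, with 53.6% against 53.6% and an interaction of 0.00 ± 0.08 (95% interval -0.17 to 0.17, FDR = 0.997 by edgeR), and so did *Fgfr1*, with 105% against 104% (0.01 ± 0.06, interval -0.11 to 0.12, FDR = 0.967). *Fgfr2* was at 188% against 148%, with an interaction of 0.35 ± 0.14 that did not pass (interval 0.07 to 0.63, FDR = 0.0907, edgeR). In all, 7 of the 10 genes passed for the interaction, 1 positive and 6 negative, and 13.0% of all tested genes did, 6.37% positive and 6.58% negative. At a size of at least 2-fold there were 2, *Gfra1* and *Dusp6*, both negative, against 2.24% of all tested genes, 0.786% positive and 1.46% negative.

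**Figure D3:**
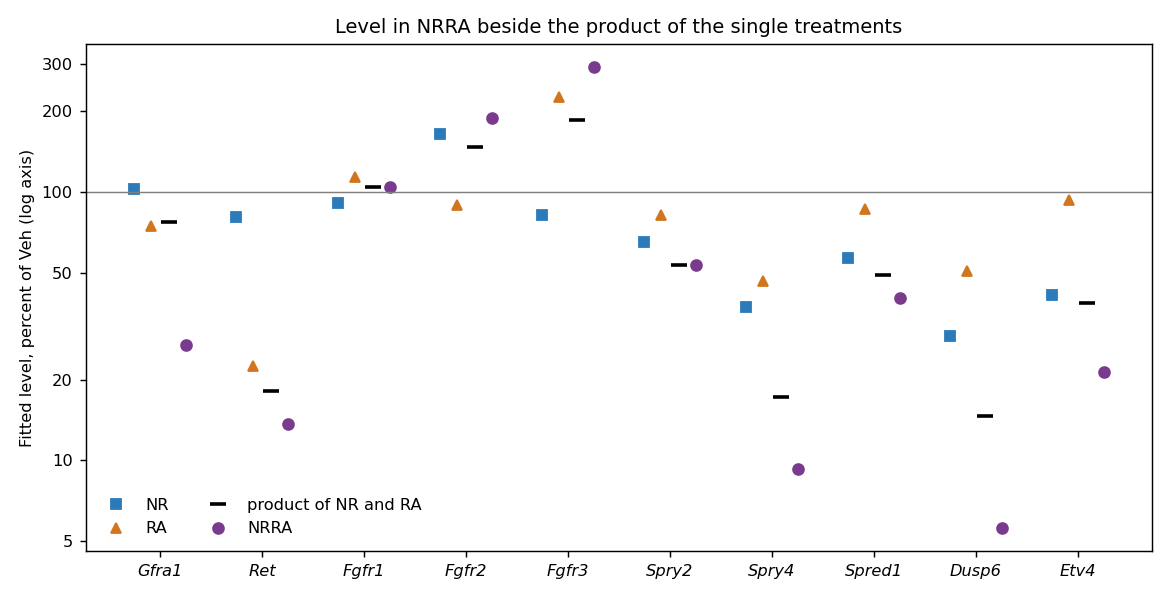
Fitted level of each gene in NR (squares), RA (triangles) and NRRA (circles) as a percentage of Veh on a log axis, with a black bar at the product of the NR and RA levels. The circle lies below the bar for *Gfra1* (26.9% against 77.2%), *Dusp6* (5.59% against 14.7%), *Spry4* and *Etv4*, on it for *Spry2* and *Fgfr1*, and above it for *Fgfr3*.

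Set side by side per gene length, the order of the 10 genes differed between conditions. In Veh *Dusp6* was the most abundant, with a mean of 87.4 RPKM, followed by *Fgfr1* at 41.4, *Spry2* at 37.5 and *Ret* at 34.4. *Spry4* (27.9 RPKM), *Spred1* (27.2) and *Etv4* (25.5) followed, with the libraries of *Spred1* overlapping those of both others, and *Gfra1* (18.5), *Fgfr2* (1.06) and *Fgfr3* (0.790) came last. In RA *Fgfr1* was at 47.3 RPKM, *Dusp6* at 44.3 and *Spry2* at 30.8, and *Ret* was at 7.74, below *Gfra1* at 13.8 and *Spry4* at 12.9. In NR *Fgfr1* (37.8 RPKM), *Ret* (27.9) and *Dusp6* (25.4) led.

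In NRRA *Fgfr1* was at 43.4 RPKM, *Spry2* at 20.1 and *Spred1* at 10.9, and all other genes lay under 6 RPKM. *Gfra1* (4.96 RPKM) lay above *Ret* (4.71) there, while the libraries of *Dusp6* (4.89) overlapped those of both. *Spry4* was at 2.59 RPKM, close to *Fgfr3* at 2.32 and *Fgfr2* at 2.01. *Dusp6* thus went from the top of the order in Veh to the level of the GDNF receptors in NRRA.

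Over the 8 libraries, *Dusp6* and *Spry4* followed each other most closely among the pairs of genes (Pearson r of log2 CPM 0.994), and *Spred1* went with *Spry2* (0.986) and with *Etv4* (0.985). *Ret* ran opposite to *Fgfr3* (-0.974) and with *Gfra1* (0.864). These correlations are descriptions over 8 libraries that fall into 4 conditions, so that a few differences between conditions set them. Of 16648 genes with a mean of at least 1 CPM, the 5 with the profile most like that of *Gfra1* were *Lpar1* (r = 0.995), *Fbxo40*, *Rhebl1*, *Gm16277* and *Kcnc2* (0.990), of which *Gm16277* is the gene that overlaps *Gfra1*. For *Ret* they were *Tcl1* (0.998), *Sox13*, *Barhl2*, *Tigar* and *Nrp2* (0.997), for *Spry4* *Zic1* (0.997), *Acvrl1*, *Ptgr1*, *Snx9* and *Tarbp1* (0.995), and for *Dusp6* *Smad7* (0.997), *Cdv3*, *Gcnt4*, *Tspan11* and *Cd9* (0.995). An r above 0.95 was reached by 102 genes for *Gfra1*, 508 for *Ret*, 503 for *Spry4* and 405 for *Dusp6*, and the closest genes are therefore not much closer than many others.

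The other genes of the pathway were read from lists, starting with further ERK feedback genes. Of 20 genes listed as such, 15 fell and 2 rose in NR by edgeR (7 fell at least 2-fold). In RA 10 fell and 6 rose (0 at least 2-fold), and in NRRA 14 fell and 5 rose (12 fell at least 2-fold). Of all tested genes, 22.2%, 23.4% and 28.7% fell in these comparisons, and 21.7%, 19.8% and 30.1% rose. At a fold of at least 2, 2.96%, 2.75% and 6.02% of all tested genes fell. The medians over the list were -0.64, -0.22 and -1.25 (log2). The list was set by name, and whether ERK induces each of its genes was not tested here. Those that rose in NR were *Lgals3bp* (0.69) and *Rasa2* (0.16). In NR the largest changes were those of *Errfi1*, an inhibitor of EGF receptors (353 ± 9.44 CPM in Veh and 55.6 ± 3.31 in NR, mean ± SD, n = 2), *Dusp4*, a nuclear phosphatase of MAP kinases (118 ± 0.542 and 30.4 ± 0.0793), *Ier3* (115 ± 5.12 and 30.1 ± 0.424) and *Phlda1* (127 ± 11.1 and 43.4 ± 0.0956). In NRRA they were those of *Ier3* (log2 -3.01), *Dusp4* (-2.74), *Etv5* (-2.68) and *Etv1* (-2.24).

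*Etv5* and *Etv1*, the relatives of *Etv4*, were lower than Veh in all 3 treatments. *Etv5*, an ETS factor that spermatogonial stem cells need, went from 179 ± 11.8 CPM in Veh (mean ± SD, n = 2) to 102 ± 1.29 in RA, 111 ± 2.05 in NR and 27.9 ± 0.843 in NRRA. *Etv1* went from 22.01 ± 0.179 CPM in Veh to 8.83 ± 0.0212 in NR, 12.1 ± 0.428 in RA and 4.66 ± 0.126 in NRRA. *Etv5* differed from Veh in RA by -0.81 (log2, FDR = 9.71e-13) and *Etv1* by -0.86 (FDR = 1.34e-08), where *Etv4* was at -0.10 and did not pass (edgeR). The largest change in RA on this list was that of the ERK phosphatase gene *Dusp7* (-0.86, FDR = 2.57e-12). *Spry1*, named here after its values were seen, had its highest level in NRRA, where *Spry2* and *Spry4* had their lowest, with 22.3 ± 0.444 CPM in Veh, 24.6 ± 0.781 in NR, 12.5 ± 0.234 in RA and 31.0 ± 2.08 in NRRA. It was higher in NRRA than in Veh by 0.47 (FDR = 4.51e-06, edgeR).

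Of 14 genes listed as ERK immediate early genes, 9 fell and 1 rose in NR, and 7 fell and 3 rose in RA (edgeR). In NRRA 12 fell and 0 rose, and the medians were -0.50, -0.16 and -1.09 (log2) in NR, RA and NRRA. The list was set by name, and how soon each of its genes responds to growth factors was not tested here. *Fos*, *Fosb*, *Srf* and *Nr4a1* did not pass in NR. Of all tested genes, 22.2% fell and 21.7% rose in NR, 23.4% and 19.8% in RA, and 28.7% and 30.1% in NRRA. In NR the cyclin gene *Ccnd1* fell from 780.4 ± 12.8 CPM (mean ± SD, n = 2) to 226 ± 0.619, and the AP-1 genes *Fosl1* and *Jun* differed from Veh by -2.26 and -1.54 on the log2 scale. *Ccnd1* was higher in RA than in Veh, by 0.34 (FDR = 2.99e-08, edgeR). *Egr3*, a transcription factor gene, was at 24.4 ± 1.53 CPM in Veh, 7.31 ± 0.294 in NR, 18.4 ± 0.481 in RA and 1.27 ± 0.0722 in NRRA. Its relative *Egr2* was at 35.4 ± 3.97 CPM in Veh, 25.7 ± 0.165 in NR, 8.35 ± 0.233 in RA and 2.46 ± 0.197 in NRRA. *Egr3* was thus lower in NR than in RA, and *Egr2* lower in RA than in NR. *Egr1* and *Fosl1* were at -2.09 and -2.24 (log2) in NRRA vs Veh, and *Nr4a1*, a nuclear receptor gene, was at -0.96 in RA.

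Of 16 genes listed as dependent on GDNF in spermatogonia, 10 fell and 3 rose in NR, 15 fell and 0 rose in RA, and 15 fell and 0 rose in NRRA (edgeR), with medians of -0.56, -1.60 and -2.67 (log2). The list was set by name, and whether each of its genes depends on GDNF was not tested here. Those that rose in NR were *Id4* (0.55), *Foxo1* (0.33) and *Zbtb16*. The share of all tested genes that fell was 22.2%, 23.4% and 28.7%, and that rose 21.7%, 19.8% and 30.1%. The list shares *Etv5*, *Egr2* and *Egr3* with those above and *Ccnd2* with the markers of differentiating spermatogonia. *Lhx1*, a homeobox gene, fell from 58.1 ± 0.572 CPM in Veh (mean ± SD, n = 2) to 31.4 ± 2.49 in NR, 4.64 ± 0.868 in RA and 1.94 ± 0.0684 in NRRA. *T*, the T-box gene also called Brachyury, was at 6.80 ± 1.14, 3.02 ± 0.664, 0.633 ± 0.258 and 0.173 ± 0.109 CPM in the same order. *Zbtb16*, which encodes PLZF, was higher in NR than in Veh by 0.57 (FDR = 2.06e-10) and lower in RA, with a difference of -2.36 (FDR = 3.55e-21, edgeR). In NR the other large changes were those of *Egr3* (-1.74), *Eomes* (-1.30) and *Cxcr4* (-1.26).

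The kinases and adaptors between receptor and ERK changed by less than 2-fold each. Of 26 such genes, 12 fell and 6 rose in NR, 13 fell and 6 rose in RA, and 15 fell and 7 rose in NRRA (edgeR), where 43.9%, 43.2% and 58.9% of all tested genes passed in either direction. The medians were -0.10, -0.10 and -0.20 (log2). The largest values were those of the adaptor gene *Gab2* (-0.67) and the kinase gene *Braf* (0.56) in NR, of the adaptor gene *Shc1* (-0.54) and *Braf* (0.51) in RA, and of the ubiquitin ligase gene *Cblb* (-0.86) and *Shc1* (-0.82) in NRRA.

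**Figure D4:**
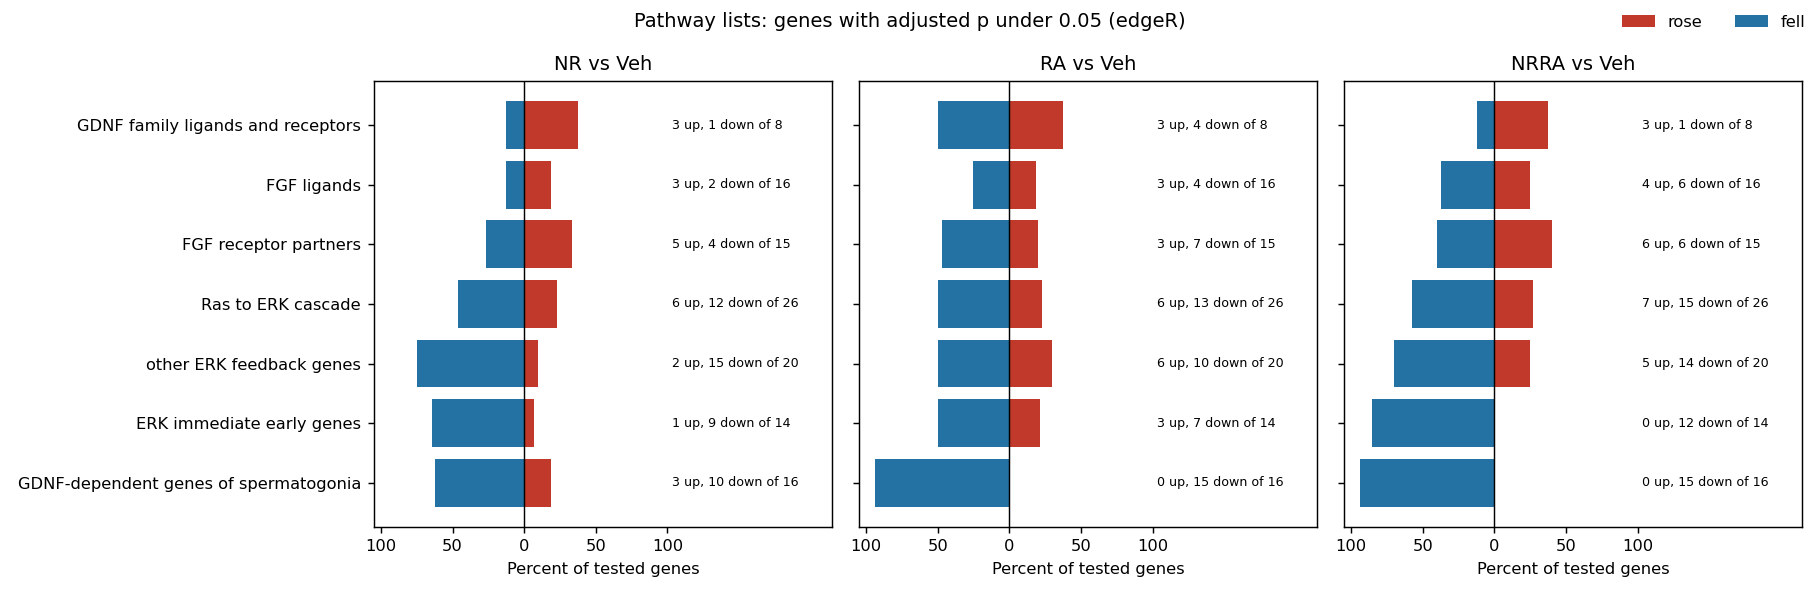
Percentage of the tested genes of 7 pathway lists that rose (to the right) or fell (to the left) at an adjusted p under 0.05 (edgeR) in NR, RA and NRRA against Veh, with the counts beside the bars. The bars of the ERK feedback, immediate early and GDNF-dependent genes lie mostly to the left, with 14 of 20, 12 of 14 and 15 of 16 genes lower in NRRA, and those of the ligands and receptor partners lie on both sides.

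Ligands and partners of the receptors were found among both the higher and the lower genes. Of 10 genes of the GDNF family and its receptors, 8 were tested, and 3 rose and 1 fell in NR, 3 rose and 4 fell in RA, and 3 rose and 1 fell in NRRA (edgeR), beside the 43.9%, 43.2% and 58.9% of all tested genes that passed. *Gdnf* itself was at 10.3 ± 0.405 CPM in Veh (mean ± SD, n = 2), 8.09 ± 0.746 in NR, 19.1 ± 1.15 in RA and 12.2 ± 0.751 in NRRA, and was higher in RA by 0.89 (FDR = 5.93e-08). *Gfra3*, the co-receptor for artemin, rose from 1.24 ± 0.494 CPM to 5.18 ± 0.238 in NR, 7.69 ± 1.14 in RA and 10.8 ± 0.333 in NRRA. *Gfra2*, the co-receptor for neurturin, was at 4.74 ± 0.656 CPM in Veh, 5.09 ± 0.223 in NR, 2.25 ± 0.00789 in RA and 2.02 ± 0.134 in NRRA. *Ncam1*, an adhesion molecule that can also bind GDNF, was higher by 1.45 (log2) in NR and by 1.33 in NRRA, and *Sorl1*, a sorting receptor, by 1.08 in NRRA. *Gfral* was at 0 in all libraries.

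Of 22 FGF ligand genes 16 were tested, of which 3 rose and 2 fell in NR, 3 rose and 4 fell in RA, and 4 rose and 6 fell in NRRA (edgeR), beside the same shares of all tested genes. *Fgf18* was at -1.75 (log2) in NR and -1.37 in NRRA, *Fgf9* at -1.43 in RA and -1.82 in NRRA, *Fgf10* at -0.99 in RA and -1.21 in NRRA, and *Fgf13* at 0.74 in NR and 1.92 in NRRA. Of 17 receptor partners 15 were tested, of which 5 rose and 4 fell in NR, 3 rose and 7 fell in RA, and 6 rose and 6 fell in NRRA, again beside the same shares of all tested genes. *Sdc4*, a heparan sulfate proteoglycan, fell from 499 ± 29.7 CPM in Veh (mean ± SD, n = 2) to 179 ± 4.46 in RA and 104 ± 1.08 in NRRA. *Gpc1*, another such proteoglycan, fell from 260.5 ± 7.38 CPM to 107 ± 2.86 in NR and 109.6 ± 0.944 in NRRA. *Flrt3* was higher in NR (1.19) and in NRRA (2.20), *Flrt2* was higher in NR (1.13) and lower in RA (-0.77), and *Flrt1* was higher in NRRA (1.24).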

How the data were processed

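RNA of cultured mouse spermatogonia was sequenced by the authors as stranded poly(A) libraries. Per the labels, bcl2fastq, STAR 2.6.1c, featureCounts 1.6.4 and the build mm10 were used, and the annotation release, the strand setting and the treatment of reads with several matches are not given in the sources used here. The authors deposited counts, whole numbers of reads per gene and library without normalization. Library labels identified every count column, and 0 columns had no sample. Conditions and replicate numbers came from the sample labels.

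Genes with low counts were removed by filterByExpr of edgeR with the conditions as groups, and the rest were scaled by TMM and fitted with the quasi-likelihood model of edgeR 4.0.16 (R 4.3.3) over all 8 libraries, with 1 coefficient per condition and no block, which left 4 residual degrees of freedom. The biological coefficient of variation was 3.35%. Each contrast was tested by the quasi-likelihood F test, with p-values adjusted after Benjamini and Hochberg over 20477 genes, and a gene was called at an adjusted p under 0.05, or in addition at a fold of at least 2. Intervals are 95% intervals of the fit. With 2 libraries per condition, the spread of a gene was pooled over the 4 conditions and drawn towards that of the other genes. The share from other genes counted as 21 prior degrees of freedom, beside the 4 residual ones. The p-values therefore rest on the spread between these libraries mostly as shared over genes, and only in part on that of the gene itself. The 2 libraries of a condition differed by more than sampling noise, with a chi-square per gene of 1.58 to 3.93, so no pair was treated as the same library deposited again. That they are biological replicates rests on the study's methods. At these depths 1 CPM stands for roughly 20 to 30 reads, so the levels of *Fgfr3* and *Fgfr2* rest on fewer reads than those of the other genes. The script was tested on simulated data of 20477 genes. Of genes simulated with a 1.5-fold change, edgeR called 40 of 67 in RA vs Veh and 28 of 67 for the interaction. At 4-fold it called 54 of 66 and 60 of 66, with 11 and 9 false calls.

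Gene coordinates, exon lengths and overlaps came from GENCODE M21 (GRCm38), which held 55240 of 55421 identifiers, and start-site sequences from RefSeq. Of the symbols, 113 stood under more than 1 identifier, and a list gene among them (*Ddit3*) was left out. The 10 genes, the lists and the tests were chosen with earlier results of these data known. From each pathway list and comparison with Veh, up to 4 genes were named with the largest change among those called at 2-fold with a mean of at least 50 counts, or the 2 largest called genes where fewer than 2 met this. *Gdnf*, *Spry1*, *Gfral*, *Fgfr4*, *Id4*, *Foxo1*, *Lgals3bp*, *Rasa2*, *Fos*, *Fosb* and *Srf* were named outside this rule. The text gives values of named genes in other comparisons too. The alternatives were edgeR with DESeq2 size factors, DESeq2 1.42.0, no filter, at least 1 CPM in at least 4 libraries, a replicate block, offsets for GC content and gene length, a fit of only the conditions compared and each library left out. Figures were drawn with matplotlib 3.10.9 in Python 3.11.15.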

Additional observations from a re-analysis of the deposited data

Results flagged for a closer look

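For 7 of the 10 genes the effect of retinoic acid differed between nutrient restriction and complete medium by the interaction test of edgeR. Among all tested genes, 13.0% passed this test. The value given is the effect of retinoic acid in restriction minus that in complete medium, on the log2 scale. It was -1.522 for *Gfra1* (adjusted p = 1.99e-13), -1.393 for *Dusp6* (1.59e-12), -0.897 for *Spry4* (3.97e-08) and -0.853 for *Etv4* (6.44e-07). It was -0.414 for *Ret* (5.11e-04), -0.282 for *Spred1* (0.0088) and 0.653 for *Fgfr3* (0.00763). The calls of *Spred1* and *Fgfr3* did not hold under every alternative. Retinoic acid lowered *Gfra1*, *Dusp6* and *Spry4* in both media and more in restriction, and *Fgfr3* was raised in both.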

How the results depend on the processing

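Under 15 alternatives, 858 of 890 recomputed differences of the 10 genes kept their direction and their side of the threshold, 9 no longer passed, 5 newly passed and 18 changed sign. All 178 recomputed counts of called genes stayed within 1.5 times the reported count. The sign changes concerned values near 0 that did not pass. The *Fgfr1* interaction (0.006) was -0.010 with DESeq2 size factors, -0.003 with DESeq2, -0.004 with the 1 CPM filter, -0.027 with GC and length offsets and -0.066 to 0.030 with single libraries left out. The *Spry2* interaction (0.001) was -0.015 with DESeq2 size factors, -0.009 with DESeq2, -0.009 with the 1 CPM filter and -0.080 to 0.029 with single libraries left out. *Etv4* in RA vs Veh (-0.103) ran from -0.164 to 0.003 with single libraries left out. With GC and length offsets *Fgfr1* passed in NRRA vs Veh (0.072, adjusted p = 0.0403) and *Fgfr2* in NRRA vs NR (0.220, adjusted p = 0.0184) and for the interaction (0.361, adjusted p = 0.0493, all edgeR), and *Fgfr2* also passed in NRRA vs NR with only these libraries fitted (0.191, adjusted p = 0.0322). With the same offsets *Spred1* in RA vs Veh went from -0.21 to -0.47 and its interaction from -0.28 to -0.15, and the members called at 2-fold went from 3 to 4 in NR vs Veh, from 7 to 8 in NRRA vs Veh and from 6 to 5 in NRRA vs RA. The cause was not tested. The fit of only the conditions compared cannot give an interaction, which needs all 4.

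The replicate numbers did not pair the samples, with correlations of the deviations of same-numbered libraries from -0.033 to 0.023. The replicate block left each count of called members as reported (8, 8 and 9 against Veh in NR, RA and NRRA, and 7 for the interaction) and called 2588 of all tested genes there. Over all tested genes, the interaction called 1587 genes with DESeq2 and 1642 to 3776 with single libraries left out (1642 without RA replicate 2), against 2652. Offsets for GC and length changed the split in NR vs Veh from 4443 higher and 4542 lower to 3697 and 5973, and for the interaction from 1304 and 1348 to 2107 and 1426. Without NR replicate 1 that split was 647 and 1080, and without NR replicate 2 it was 691 and 1130. At a fold of at least 2, DESeq2 called 268 genes for the interaction against 459, and the 1 CPM filter called 1001 against 1534 in RA vs Veh and 1166 against 1781 in NRRA vs NR.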
